A study of Arabidopsis thaliana with 12 samples.

Results

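Transcripts of cytosolic ribosomal protein genes were measured in whole germinants of Arabidopsis thaliana grown on titania (TiO2) or ceria (CeO2) nanoparticles. The genes were taken from a list of 60 loci, 33 on chromosome 1 and 27 on chromosome 2, and each was required to be the only gene that the probe annotation pairs with a probe set. This held for 29 of the 60 loci, each with 1 probe set. Another 14 loci occurred only on 10 probe sets that the annotation pairs with several loci, and 17 loci had no paired probe set and were not analysed here. The 29 genes encode 24 kinds of ribosomal protein, with 21 genes for the large (60S) and 8 for the small (40S) subunit. The list stops at chromosome 2 and is therefore a part of the family. Protein names (L for the large and S for the small subunit) come from a hand-written list. The gene table gave a symbol other than the locus number for only 1 of the 29, PGY1 (AT2G27530). Most of the 17 loci without a paired probe set do have such a symbol, among them RPS15, RPL24A and RPS5B. The 29 genes are therefore not an even sample of the list.

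The cytosolic ribosome is assembled in the nucleolus and cytoplasm from ribosomal RNA and ribosomal proteins. In plants nearly every ribosomal protein is encoded by several genes with closely similar products. Their transcripts are most abundant where cells divide and grow, and in plants as in other eukaryotes the target of rapamycin (TOR) kinase couples their production and translation to nutrient supply. They are therefore commonly used as a readout of growth and of the capacity for protein synthesis.

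RNA came from Columbia (Col-0) germinants 12 days old, raised from 50 seeds per dish on a disc wetted with 2 mL of liquid, under 16 h light and 8 h dark at 22 °C. The 4 groups, with 3 Affymetrix arrays each, were germinants on 500 mg per L TiO2, germinants on 0.1 mM KCl (the control named for titania), germinants on 500 mg per L CeO2, and germinants on sterile purified water (the control named for ceria). No transgene or mutation is named for any group. The labels call the KCl and TiO2 arrays biological replicates and the water and CeO2 arrays replicates only; they do not say whether the water and CeO2 arrays came from separate dishes, so the p-values measure the spread between these arrays. Nor do they say how many germinants were pooled per array or in which liquid the particles were suspended. Values are the authors' RMA expression values on a log2 scale, in which 1 unit is a doubling. Array medians lay between 5.69 and 5.74 log2 for the TiO2 and KCl arrays and between 5.88 and 5.92 for the CeO2 and water arrays on the log2 scale. The floor of the scale was at 2.3 to 2.5, the lowest values on single arrays. Few tissue markers had a probe set of their own. The leaf gene RCA (Rubisco activase), 1 of 10 photosynthetic markers, was between 13.5 and 13.8 log2 on all arrays. All 4 measured root markers of 8 (EXPA7, EXPA18, AT4G26010 and AT1G34510) rose in CeO2, by 0.96 to 1.87 log2. In TiO2 1 of them rose and 1 fell. The threshold for these markers was a limma adjusted p below 0.05. Among all probe sets 1.26% rose in CeO2, and 4.72% rose and 5.86% fell in TiO2. Whether these 4 genes follow the amount of root tissue was not tested. Both measured seed markers of 8 passed the threshold in TiO2, where PAP85 had a log2 difference of −1.38 and M17 of −2.22. In CeO2 they missed it, at −0.43 for PAP85 and −0.18 for M17 (limma adjusted p = 0.740 and 0.971). The senescence gene SAG101, 1 of 8 such markers, had differences of −0.010 in TiO2 and 0.037 in CeO2. The part of these tissues in the values below was not tested. None of 12 genes of dividing cells had a probe set of its own in the probe annotation. This annotation paired 8730 of the 22746 probe sets with no gene, so the array may still carry probes for them.

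The comparison of TiO2 with KCl asks whether ribosomal protein transcripts differed in germinants on titania. None of the 29 genes passed the threshold in TiO2 germinants (limma, adjusted p below 0.05, Benjamini-Hochberg over all 22746 probe sets). Of all probe sets 10.6% passed, 4.72% higher and 5.86% lower. Of the 29 genes 25 had a positive and 4 a negative difference, with a median of 0.10 log2, from −0.15 for AT1G74270 (L35a) to 0.25 for AT2G40010 (P0). Of all probe sets 54.8% had a positive difference, with a median of 0.019. At an unadjusted p below 0.05 there were 5 genes higher in TiO2 and 0 lower, or 17.2% of the members, against 11.9% higher and 11.1% lower among all probe sets. The 95% intervals of the 29 differences, each for its own gene, lay between −0.48 and 0.51 log2, and the median standard error (SE) was 0.10. In whole germinants a changed share of a cell type and a changed amount of transcript per cell cannot be told apart.

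The comparison of CeO2 with water asks the same for ceria. None of the 29 genes passed the threshold in CeO2 germinants by limma, where 2.42% of all probe sets did, 1.26% higher and 1.16% lower. The differences were positive for 8 genes and negative for 21, with a median of −0.046 log2, from −0.17 for AT1G74270 (L35a) to 0.11 for AT1G48830 (S7). Among all probe sets 48.4% were positive, with a median of −0.0051. At an unadjusted p below 0.05 there were 0 genes higher and 0 lower, against 4.88% and 4.92% of all probe sets. The intervals of the 29 differences lay between −0.51 and 0.34 log2.

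**Figure D1:**
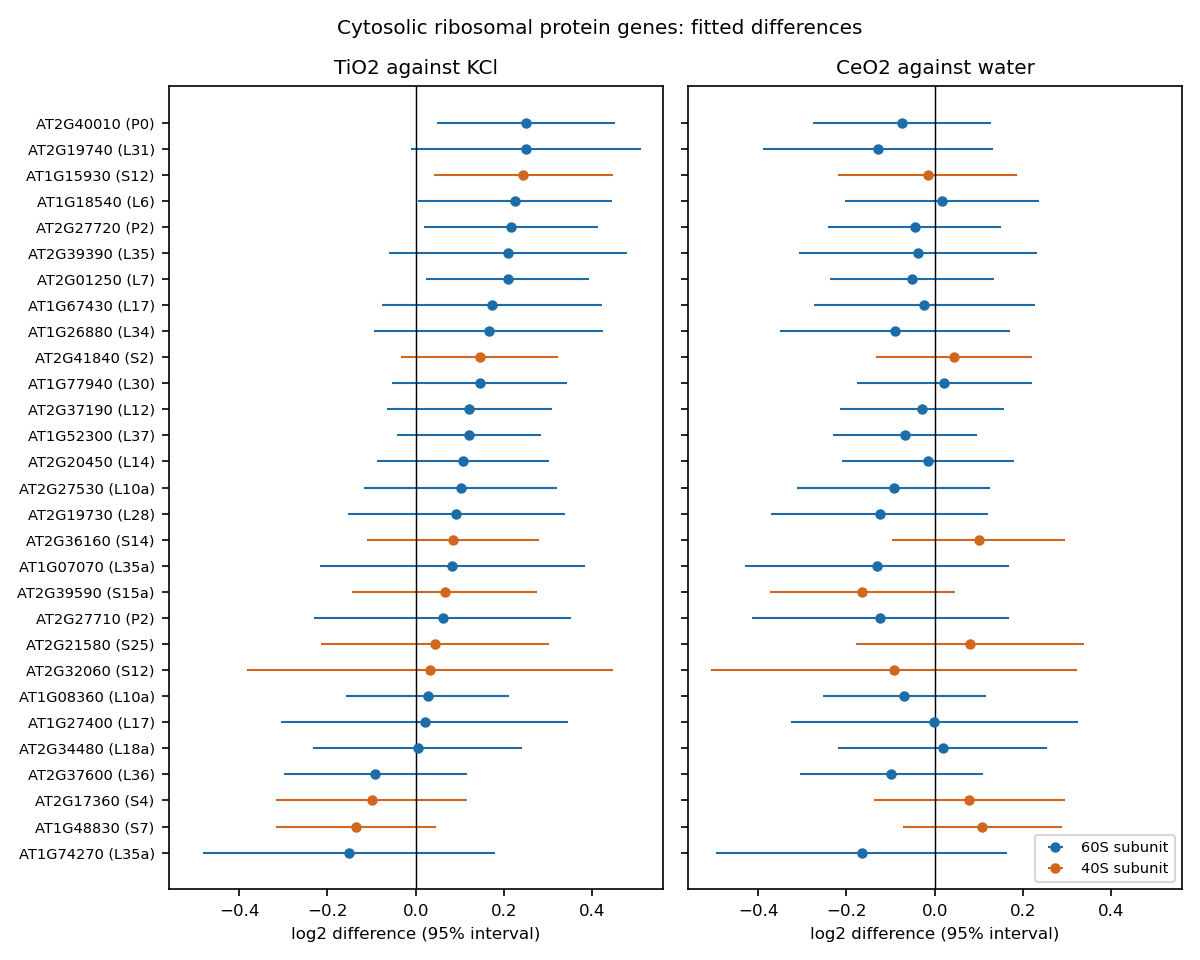
Fitted log2 differences of the 29 genes (points) with their 95% intervals (bars), TiO2 against KCl on the left and CeO2 against water on the right; blue marks the 60S and orange the 40S subunit. The points lie between −0.15 and 0.25 on the left and between −0.17 and 0.11 on the right.

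The arrays of a group differed among themselves in the level of these genes by as much as the groups did. For each array the median was taken over the 29 genes of the value minus the gene's mean over the 6 arrays compared. In TiO2 it was −0.067, 0.056 and 0.14 log2 for replicates 1, 2 and 3, and in KCl it was 0.024, −0.10 and −0.059. The groups overlapped, with TiO2 replicate 1 below 2 of the 3 KCl arrays and TiO2 replicate 3 highest. TiO2 replicate 3 was the highest of the 6 arrays for 16 of the 29 genes. In CeO2 the medians were 0.019, −0.0059 and −0.055, and in water they were 0.077, −0.032 and −0.019. These groups overlapped as well, and water replicate 1 was the highest of the 6 arrays for 17 genes. With water replicate 1 left out, the median CeO2 difference was −0.00069, with 14 genes positive and 15 negative. Without TiO2 replicate 3 the median TiO2 difference was 0.076, with 22 genes positive and 7 negative, and without TiO2 replicate 1 it was 0.15, with 25 and 4. The corresponding medians over all probe sets lay between −0.019 and 0.018 on every array. Over 85 further cytosolic ribosomal protein genes, described below, they were −0.075, 0.0047 and 0.11 in TiO2 and 0.00066, −0.032 and −0.086 in KCl. In CeO2 they were 0.021, −0.0017 and −0.019, and in water 0.087, −0.034 and −0.0044. TiO2 replicate 3 and water replicate 1 were thus highest for those genes as well.

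**Figure D2:**
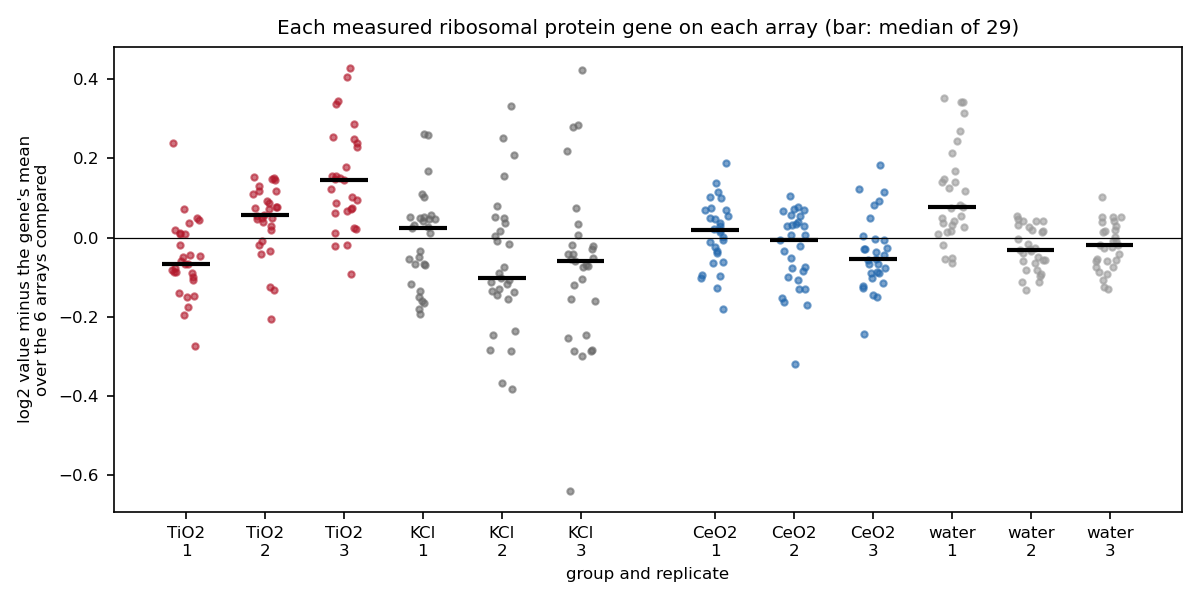
Each point is 1 of the 29 genes on 1 array, as its log2 value minus its mean over the 6 arrays compared; the bars are medians over the genes. The bars of TiO2 and KCl overlap, as do those of CeO2 and water, and the highest bars are those of TiO2 replicate 3 (0.14) and water replicate 1 (0.077).

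KCl replicate 3 spread the genes most widely, with an SD over the 29 genes of 0.21 log2 for these differences, against 0.088 to 0.17 on the other arrays of TiO2 and KCl and 0.055 to 0.12 on those of CeO2 and water. It was the lowest of the 6 arrays for 10 genes and the highest for 3. AT2G32060 (S12) had 10.34 there, against 11.24 and 11.31 in the other KCl arrays, while AT1G27400 (L17) had 11.30 there, against 10.81 and 10.50. The within-group SD of a gene over all 4 groups was 0.12 log2 in the median of the 29 genes, from 0.037 to 0.31, and 0.13 in the median of all probe sets.

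The ribosomal stalk, a lateral arm of the large subunit that recruits elongation factors, is built of P0, which anchors the stalk, and of pairs of the acidic proteins P1 and P2, on a base that includes L12. The gene for P0 on the list, AT2G40010, had the largest difference in TiO2. It had 8.05, 7.87 and 7.90 log2 in TiO2, against 7.70, 7.68 and 7.70 in KCl. The 3 TiO2 arrays lay above the 3 KCl arrays. The difference was 0.25 ± 0.095 log2 (SE, n = 3 each; limma adjusted p = 0.115), with a 95% interval of 0.048 to 0.45. In CeO2 it had 6.98, 7.08 and 7.04, against 7.28, 6.94 and 7.10 in water. Those groups overlapped, with a difference of −0.074 ± 0.095 (limma adjusted p = 0.925).

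The P2 genes AT2G27710 and AT2G27720 are neighbours on chromosome 2. AT2G27720 had 11.76, 11.84 and 11.86 log2 in TiO2, against 11.76, 11.62 and 11.43 in KCl, and its difference was 0.22 ± 0.093 (SE, n = 3 each; limma adjusted p = 0.170). KCl replicate 1 lay within the range of the TiO2 arrays. AT2G27710 had a difference of 0.062 ± 0.14 in TiO2, and in CeO2 the pair had differences of −0.046 for AT2G27720 and −0.12 for AT2G27710. The L12 gene AT2G37190 had a difference of 0.12 in TiO2 and of −0.029 in CeO2.

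Proteins around the exit of the tunnel through which the new polypeptide leaves the ribosome include L17, which also lines the tunnel, L31 and L35. AT2G19740 (L31) had 8.51, 8.75 and 9.08 log2 in TiO2, against 8.49, 8.41 and 8.69 in KCl. The groups overlapped and TiO2 replicate 3 was highest. Its difference was 0.25 ± 0.12 (SE, n = 3 each; limma adjusted p = 0.241). Leaving out TiO2 replicate 3 gave 0.098, and leaving out TiO2 replicate 1 gave 0.39. In CeO2 it had 8.734, 8.614 and 8.597, against 8.84, 8.73 and 8.77 in water, a difference of −0.13 ± 0.12. CeO2 replicate 1 lay just above the lowest water array. Next to it on the chromosome lies AT2G19730 (L28, another large subunit protein), with differences of 0.092 in TiO2 and −0.12 in CeO2. AT2G39390 (L35) had differences of 0.21 in TiO2 and −0.038 in CeO2.

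The L17 genes AT1G67430 and AT1G27400 were both highest or next to highest in KCl replicate 3. AT1G67430 had 12.12, 12.22 and 12.42 log2 in TiO2, against 11.97, 11.88 and 12.38 in KCl, and KCl replicate 3 lay above 2 of the 3 TiO2 arrays. Its difference was 0.17 ± 0.12 (SE, n = 3 each; limma adjusted p = 0.439). Without KCl replicate 3 it was 0.32 and passed the threshold (limma adjusted p = 0.0487). No other of the 29 genes passed in TiO2 when a single array was left out. AT1G27400 had a difference of 0.020 ± 0.15 in TiO2. In CeO2 the L17 genes were at −0.023 for AT1G67430 and −0.00098 for AT1G27400.

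L10a forms the L1 stalk, the mobile arm beside the site where spent transfer RNA leaves. Its genes are PGY1 (AT2G27530), named PIGGYBACK1 for its mutant effect on leaf polarity, and AT1G08360. PGY1 had 11.12, 11.38 and 11.33 log2 in TiO2, against 11.28, 11.31 and 10.94 in KCl, with overlapping groups and a difference of 0.10 ± 0.10 (SE, n = 3 each; limma adjusted p = 0.644). In CeO2 it had 10.89, 10.84 and 10.80, against 10.93, 10.94 and 10.93 in water. The CeO2 arrays lay below the water arrays by a small margin, a difference of −0.093 ± 0.10 (limma adjusted p = 0.905). AT1G08360 had differences of 0.027 in TiO2 and −0.069 in CeO2.

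The L35a genes, of another large subunit protein, had opposite signs in TiO2. AT1G74270 had 9.18, 9.06 and 9.33 log2 in TiO2, against 9.53, 9.52 and 8.98 in KCl, with KCl replicate 3 below the other 5 arrays. Its difference was −0.15 ± 0.16 (SE, n = 3 each; limma adjusted p = 0.651), from −0.33 without KCl replicate 3 to −0.059. AT1G07070 had 7.48, 7.5 and 8.04 in TiO2, against 7.68, 7.62 and 7.47 in KCl. Only TiO2 replicate 3 lay above the KCl arrays, and the difference was 0.083 ± 0.14 with it (limma adjusted p = 0.813) and −0.099 without it. In CeO2 AT1G74270 had 8.91, 8.49 and 8.78, against 9.17, 8.72 and 8.80 in water. Its difference of −0.17 ± 0.16 (limma adjusted p = 0.870) was the most negative of the 29 in CeO2, and it was −0.030 without water replicate 1. AT1G07070 was at −0.13 in CeO2. The intervals of both genes include 0 in both comparisons.

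The other large subunit genes had TiO2 differences between −0.092 and 0.23 log2. The highest were AT1G18540 (L6) at 0.23 ± 0.10 and AT2G01250 (L7) at 0.21 ± 0.087 (SE, n = 3 each; limma adjusted p = 0.206 and 0.157). AT2G01250 had 12.07, 12.17 and 12.35 in TiO2, against 11.95, 11.96 and 12.05 in KCl, and the groups did not overlap. Next came AT1G26880 (L34) at 0.17, AT1G77940 (L30, whose yeast counterpart controls splicing of its own transcript) at 0.15, AT1G52300 (L37) at 0.12 and AT2G20450 (L14) at 0.11. AT2G34480 (L18a) was at 0.0041 and AT2G37600 (L36) at −0.092. In CeO2 these 8 genes lay between −0.099 for AT2G37600 (L36) and 0.022 for AT1G77940 (L30). AT1G52300 (L37) had 12.12, 12.16 and 12.09 in CeO2, against 12.19, 12.17 and 12.21 in water. These groups did not overlap, with a difference of −0.067 ± 0.076 (limma adjusted p = 0.909), and those of TiO2 and KCl did not overlap either, with TiO2 higher.

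Of the small subunit, S7 had the opposite signs to most of the genes. AT1G48830 (S7) had 11.04, 11.14 and 11.16 log2 in TiO2, against 11.23, 11.39 and 11.13 in KCl, a difference of −0.13 ± 0.085 (SE, n = 3 each; limma adjusted p = 0.396). The groups overlapped through KCl replicate 3, and the difference was −0.064 without KCl replicate 2. In CeO2 it had 10.78, 10.76 and 10.81, against 10.67, 10.68 and 10.67 in water, without overlap. That difference was 0.11 ± 0.085 (limma adjusted p = 0.817), the most positive of the 29 in CeO2. AT2G17360 (S4) also had a negative difference in TiO2, −0.10 ± 0.10, and a positive one in CeO2, 0.078 ± 0.10. Without TiO2 replicate 1 the TiO2 difference of S4 was 0.012. It had 8.93, 9.31 and 9.21 in TiO2, against 9.25, 9.36 and 9.14 in KCl, and 9.49, 9.46 and 9.42 in CeO2, against 9.40, 9.45 and 9.29 in water. Both pairs of groups overlapped.

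The S12 genes differed in how tightly their arrays lay. AT1G15930 had 13.19, 13.30 and 13.42 log2 in TiO2, against 13.03, 13.04 and 13.11 in KCl, without overlap. Its difference was 0.24 ± 0.095 (SE, n = 3 each; limma adjusted p = 0.126), and in CeO2 it was −0.016. AT2G32060 had 10.89, 10.96 and 11.13 in TiO2, against 11.24, 11.31 and 10.34 in KCl. Its KCl arrays spanned the TiO2 arrays on both sides, and its differences were 0.033 ± 0.20 in TiO2 and −0.092 ± 0.20 in CeO2. AT2G41840 (S2, at the channel where messenger RNA enters) had 12.61, 12.75 and 12.66 in TiO2, against 12.53, 12.47 and 12.58 in KCl, without overlap and with a difference of 0.15 ± 0.084 (limma adjusted p = 0.340). In CeO2 it was at 0.044.

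AT2G36160 (S14, of the platform near the messenger RNA exit) was among the highest in CeO2. It had 12.12, 12.12 and 12.03 log2 in TiO2, against 12.07, 12.05 and 11.89 in KCl, and 11.00, 11.17 and 11.29 in CeO2, against 11.05, 10.99 and 11.12 in water. Its differences were 0.084 ± 0.092 in TiO2 and 0.099 ± 0.092 in CeO2 (SE, n = 3 each; limma adjusted p = 0.675 and 0.867), with overlap in both. The difference in CeO2 was 0.033 without CeO2 replicate 3 and 0.18 without CeO2 replicate 1. AT2G21580 (S25, needed in yeast and human cells for initiation at some internal sites) was at 0.044 in TiO2 and 0.081 in CeO2. AT2G39590 (S15a) was the 1 gene near the floor of the scale. Its values were 3.08, 3.18 and 3.22 in TiO2, against 3.16, 3.03 and 3.10 in KCl, and 2.99, 2.95 and 3.17 in CeO2, against 3.39, 3.14 and 3.08 in water. All 12 values lay within about 1 log2 unit of the lowest values on the arrays, and the difference in CeO2 was −0.16 ± 0.099 (limma adjusted p = 0.690), and −0.071 without water replicate 1.

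**Figure D3:**
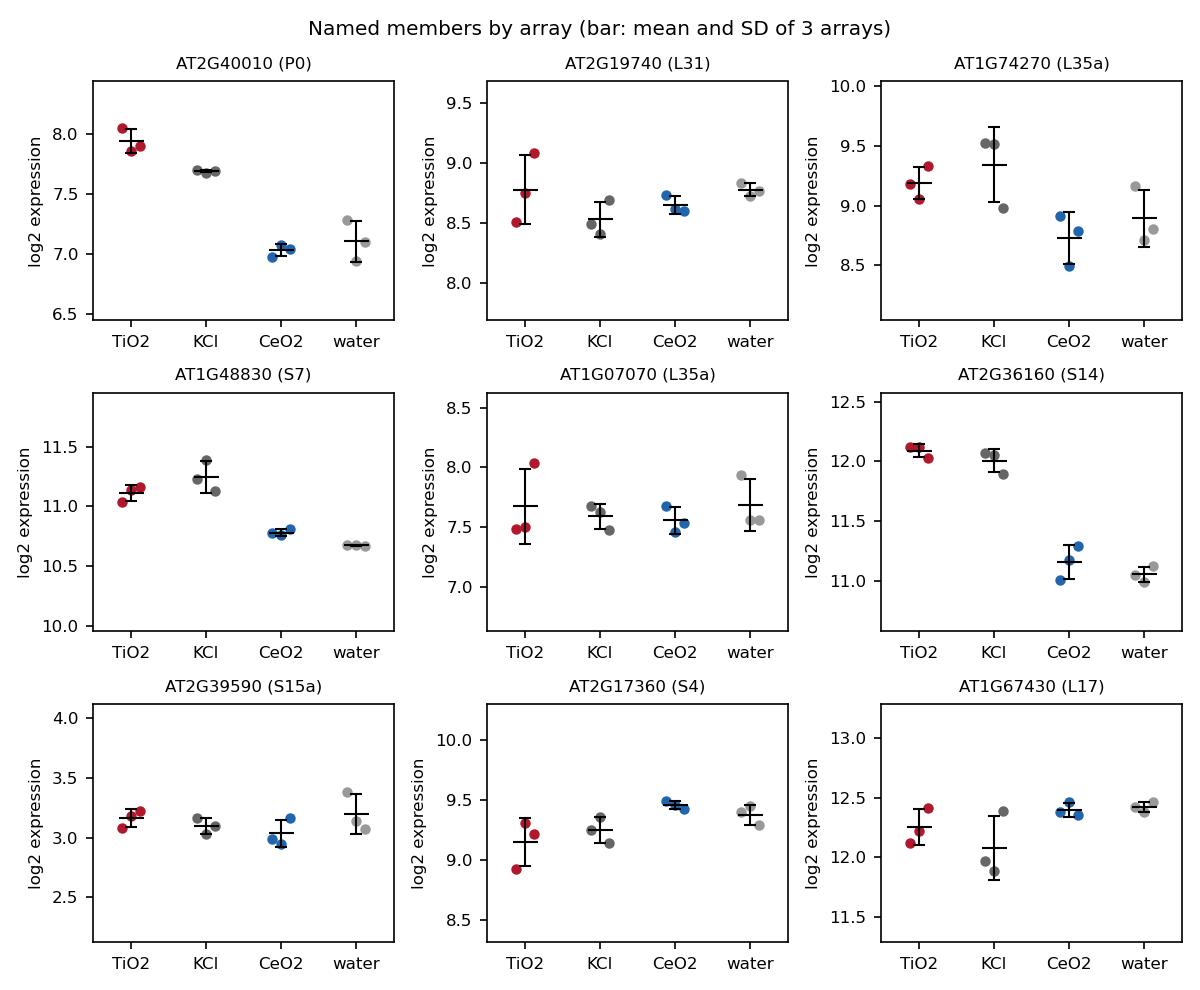
Log2 expression of 9 genes on the 12 arrays (points), with the mean and SD of 3 arrays (bars); every panel spans 2 log2 units. The TiO2 arrays of AT2G40010 (P0) lie above its KCl arrays and the CeO2 arrays of AT1G48830 (S7) above its water arrays, and KCl replicate 3 lies apart from the other KCl arrays for AT1G74270 (L35a) and AT1G67430 (L17).

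Counted over all 29 genes, the groups did not overlap for 5 genes higher in TiO2 (P0, S12 AT1G15930, L7, L37 and S2) and for 0 lower, against 13.1% and 11.3% of all probe sets. For CeO2 the groups did not overlap for 1 gene higher (S7) and 2 lower (L37 and PGY1), against 8.26% and 8.54%. With 3 arrays against 3, an exact permutation test of a single gene cannot go below p = 0.1. The differences had the same sign in all 6 fits that left out 1 array for 16 of the 25 positive and 3 of the 4 negative genes in TiO2, and for 5 of the 8 positive and 12 of the 21 negative genes in CeO2. These fits share most of their arrays, and the matching share of all probe sets is not reported here. By subunit, the TiO2 differences were positive for 19 of 21 large subunit genes (median 0.12) and 6 of 8 small subunit genes (median 0.055). In CeO2 they were positive for 3 of 21 (median −0.067) and 5 of 8 (median 0.061). The difference between the subunits was not tested.

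The difference of the particle effects (CeO2 against water minus TiO2 against KCl) was past the threshold for none of the 29 genes by limma, against 8.06% of all probe sets (4.64% with a more positive effect of CeO2 and 3.42% with a more negative one). It was positive for 5 genes and negative for 24, with a median of −0.19 log2 against −0.027 over all probe sets. The median was −0.11 without TiO2 replicate 3 and −0.11 without water replicate 1. At an unadjusted p below 0.05 there were 0 genes with a positive and 2 with a negative difference of effects, AT2G40010 (P0) and AT2G19740 (L31), against 9.69% and 10.0% of all probe sets. P0 had −0.32 ± 0.13 and L31 −0.38 ± 0.17 (SE, n = 3 in each of 4 groups; limma adjusted p = 0.179 and 0.236). The most positive were S7 at 0.24 ± 0.12 and S4 at 0.18 ± 0.14 (limma adjusted p = 0.287 and 0.581), and S4 was at 0.067 without TiO2 replicate 1. The kind of particle, the liquid of its control and the array set are confounded here and cannot be told apart.

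The levels of single genes spanned a wider range of differences between the 2 sets of arrays than between a particle and its control. The mean of the TiO2 and KCl arrays minus the mean of the CeO2 and water arrays lay between −0.55 and 1.04 log2 over the 29 genes, with a median of 0.11 and 19 positive, and the median over all probe sets was 0.011. AT2G36160 (S14) averaged 12.09 ± 0.05 in TiO2 and 12.01 ± 0.10 in KCl, and 11.16 ± 0.14 in CeO2 and 11.06 ± 0.06 in water (SD, n = 3 each). For AT1G27400 (L17) the order was reversed, with 10.89 ± 0.19 in TiO2 and 10.87 ± 0.41 in KCl, and 11.43 ± 0.09 in CeO2 and 11.43 ± 0.05 in water. These offsets were not tested, since the sets may have been normalized separately.

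Probe sets that the annotation pairs with several loci, 10 in all for 14 of the listed loci, were examined apart, as they cannot be assigned to 1 gene. None passed the threshold by limma in TiO2, in CeO2 or in the difference of effects, against 10.6%, 2.42% and 8.06% of all probe sets. At an unadjusted p below 0.05 there were 2 of the 10 higher in TiO2, against 11.9% of all probe sets. The differences of the 10 had a median of 0.034 log2 in TiO2, from −0.17 to 0.26, and of 0.075 in CeO2, from −0.16 to 0.17.

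Other genes of the translation machinery were taken from hand-written lists. Of 139 further cytosolic ribosomal protein loci 85 had a probe set of their own, and of these 2 rose and 0 fell in TiO2, with 61 of 85 differences positive and a median of 0.050 log2. Among all probe sets 4.72% rose and 5.86% fell in TiO2, so that the share of the 85 that rose was below that of all probe sets. AT3G09200, another gene for P0, rose by 0.32 ± 0.087, with 13.26, 13.32 and 13.36 in TiO2, against 13.02, 13.02 and 12.94 in KCl (SE, n = 3 each; limma adjusted p = 0.0272). AT5G02870 (L4, of the large subunit core) rose by 0.29 ± 0.085, with 12.48, 12.63 and 12.56 in TiO2, against 12.29, 12.33 and 12.20 in KCl (limma adjusted p = 0.0414). The groups did not overlap for either gene. The P0 gene AT3G11250 had 0.18 ± 0.098 (limma adjusted p = 0.293). In TiO2 6 of the 85 were higher and 2 lower at an unadjusted p below 0.05, against 11.9% and 11.1% of all probe sets. In CeO2 none of the 85 passed by limma, against 2.42% of all probe sets. At an unadjusted p below 0.05, 1 of the 85 was higher and 0 lower, against 4.88% and 4.92% of all probe sets. Of the 85, 37 were positive and the median was −0.020, against 48.4% and −0.0051 over all probe sets.

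Ribosome biogenesis factors, which process ribosomal RNA and assemble the subunits, had 16 of 29 genes measured. In TiO2 3 of the 16 rose, 0 fell and 15 were positive, with a median of 0.12 log2, beside 4.72% risen, 5.86% fallen, 54.8% positive and a median of 0.019 among all probe sets. AT1G06720 (of the BMS1 type, a factor of small subunit assembly) rose by 0.45 ± 0.13, AT1G50920 (NOG1, a GTPase of large subunit assembly) by 0.38 ± 0.092 and AT5G15550 (of the WDR12 type, in large subunit ribosomal RNA processing) by 0.34 ± 0.097 (SE, n = 3 each; limma adjusted p = 0.0358, 0.0143 and 0.0314). AT1G06720 lay near the floor of the scale in these arrays, with 4.06, 4.44 and 4.26 in TiO2, against 3.91, 3.61 and 3.90 in KCl. Of the 16, 6 were higher and 0 lower in TiO2 at an unadjusted p below 0.05, against 11.9% and 11.1% of all probe sets. In CeO2 none of the 16 passed by limma, against 2.42% of all probe sets, and their median was 0.0057. None of the 16 had an unadjusted p below 0.05, against 4.88% higher and 4.92% lower among all probe sets. Of 6 measured translation factors 1 rose in TiO2, AT4G20980 (subunit d of initiation factor eIF3), by 0.42 ± 0.13 (limma adjusted p = 0.0427). At an unadjusted p below 0.05, 2 of the 6 were higher and 0 lower in TiO2. None of the 6 passed in CeO2 by limma or at an unadjusted p below 0.05. Both measured genes of the TOR list of 12, RAPTOR1 (AT3G08850) and AT5G63190 (MRF1, a translation regulator downstream of TOR), missed the threshold in both comparisons by limma, with AT5G63190 at an unadjusted p below 0.05 in both.

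Nuclear genes for plastid ribosomal proteins, which make the ribosome of the chloroplast, had 9 of 40 measured. In TiO2 all 9 differences were positive, with a median of 0.15 log2, and 1 rose, AT3G13120 (plastid S10), by 0.27 ± 0.080 (SE, n = 3 each; limma adjusted p = 0.0411). Among all probe sets 54.8% were positive in TiO2, with a median of 0.019, and 4.72% rose. In TiO2 4 of the 9 were higher and 0 lower at an unadjusted p below 0.05, against 11.9% and 11.1% of all probe sets. For the difference of effects 0 of the 9 were higher and 5 lower at that p, against 9.69% and 10.0%. In CeO2 all 9 plastid genes were negative, with a median of −0.14, none passed by limma, and 1 was lower at an unadjusted p below 0.05. Among all probe sets 48.4% were positive in CeO2, with a median of −0.0051. Of these 2.42% passed by limma, and 4.92% were lower at an unadjusted p below 0.05. Whether any of these lists differed from the 29 cytosolic genes was not tested, and all lists share the same arrays.

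**Figure D4:**
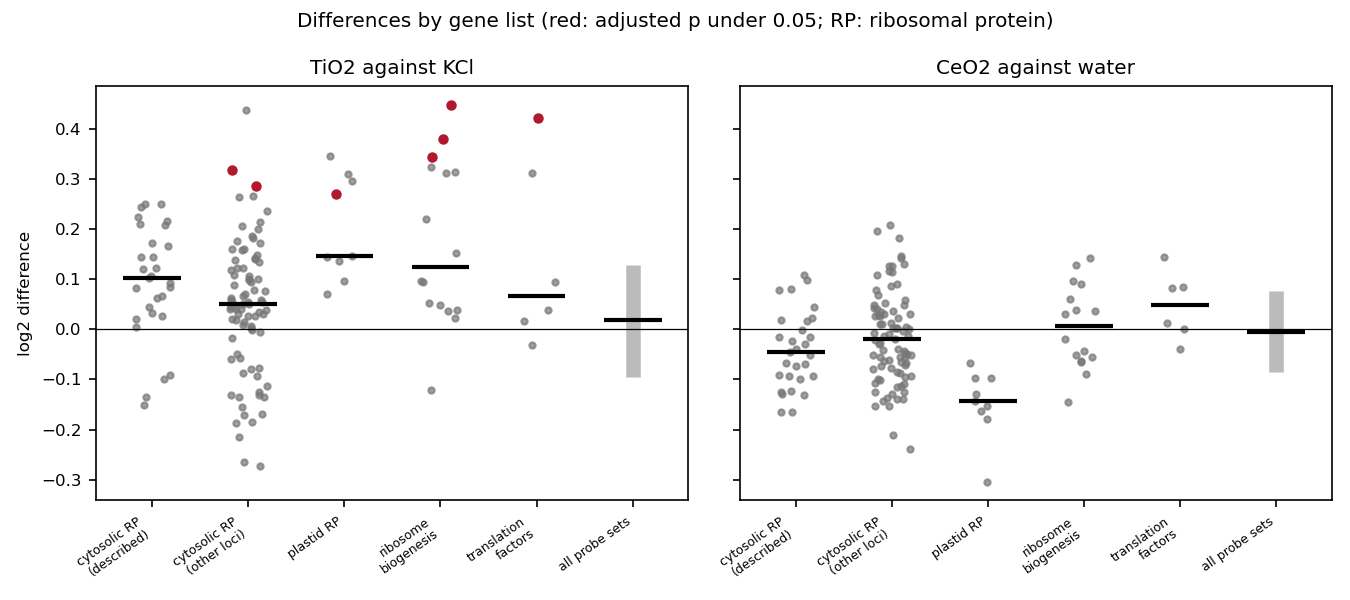
Log2 differences of single genes by list (points; red, limma adjusted p below 0.05) with the list median (black bar), TiO2 against KCl on the left and CeO2 against water on the right; for all probe sets the grey bar is the middle 50%. None of the 29 described genes is red, and the red genes lie in TiO2 in the other lists, 2 further cytosolic ribosomal protein genes, 1 plastid gene, 3 biogenesis genes and 1 translation factor.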

How the data were processed

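The authors deposited log2 expression values per probe set, made with RMA per the submitters' processing notes; its version and whether the 12 arrays were normalized together are not given in the sources used here. All 22746 probe sets were used without a filter. The probe annotation paired 13513 with 1 gene, 503 with several and 8730 with none, and probe sets were matched to loci through gene identifiers of the RefSeq gene table. The linear model was limma's (version 3.58.1, under R 4.3.3), with a mean for each group, all 12 arrays and empirical Bayes moderation (8 residual and 7.63 prior degrees of freedom), two-sided, with Benjamini-Hochberg adjustment over all probe sets and a threshold of 0.05. The fit was tested on simulated data with independent noise and planted changes larger than any difference of the 29 genes. That test therefore does not show how often changes of their size would be found. Intervals are limma's, at 95%, for single genes; 3 arrays per group limit the precision. Members and lists were chosen with earlier results of these data known. By the naming rule, the 2 most positive and 2 most negative members per comparison, and families with members on both sides of 0, were named where under 4 passed, and up to 3 genes past the threshold per list; the remaining members are named beyond that rule. Alternatives were the compared arrays only, a replicate block, a second quantile normalization, centring on array medians, leaving out the dimmest 30% of probe sets, an intensity trend with a robust prior, and leaving out each array. Promoter motifs were not analysed here.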

Additional observations from a re-analysis of the deposited data

Results flagged for a closer look

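By the test of the difference itself (CeO2 against water minus TiO2 against KCl), 8.06% of all probe sets passed. Among the lists beside the 29 genes, the particle effects differed by this test for 6 genes. Of these, 4 are tissue markers: the root genes AT4G26010 (1.70 log2; limma adjusted p = 1.163e-05), EXPA18 (1.37; 0.0001172) and AT1G34510 (1.18; 0.0005711) and the seed gene M17 (2.04; 0.0199). AT5G63190 (MRF1, of the TOR list) had a difference of −0.68 ± 0.17 log2 (SE, n = 3 in each of 4 groups; limma adjusted p = 0.0214), from −0.39 in CeO2 and 0.29 in TiO2, neither of which passed on its own. It had 8.78, 8.80 and 8.87 in CeO2, against 9.28, 9.11 and 9.23 in water, and 8.95, 9.15 and 9.06 in TiO2, against 8.80, 9.05 and 8.45 in KCl. AT5G47190 (plastid ribosomal protein L19) had a difference of −0.65 ± 0.16 (limma adjusted p = 0.0200), from −0.30 in CeO2 and 0.35 in TiO2, neither of which passed. It had 9.81, 9.54 and 9.52 in CeO2, against 10.01, 10.00 and 9.78 in water, and 10.05, 10.11 and 10.09 in TiO2, against 9.82, 9.91 and 9.49 in KCl. For AT5G63190 and AT5G47190 alike, KCl replicate 3 was the lowest of the TiO2 and KCl arrays. Their values with single arrays left out are not reported here. The 6 genes were 3 of 4 measured root, 1 of 2 seed, 1 of 2 TOR and 1 of 9 plastid ribosomal protein genes. None passed among the 85 further cytosolic ribosomal protein genes, 16 biogenesis factors and 6 translation factors. Particle, control liquid and array set cannot be told apart in the differences of effects.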

How the results depend on the processing

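The count of members past the threshold stayed at 0 in CeO2 and in the difference of effects under every alternative run, and lay between 0 and 1 in TiO2 when single arrays were left out (1 without KCl replicate 3, AT1G67430). The median over the members lay between 0.076 and 0.15 log2 in TiO2, between −0.064 and −0.00069 in CeO2 and between −0.21 and −0.11 for the difference of effects when single arrays were left out, the last at −0.1113 without TiO2 replicate 3 and −0.1075 without water replicate 1. Of 13 named values, AT1G07070 in TiO2 ranged from −0.099 without TiO2 replicate 3, a reversed sign, to 0.18 without TiO2 replicate 1, and the others kept their sign and stayed short of the threshold, though several moved by over 1.5 times when 1 array was left out: in TiO2 S7 to −0.064, L31 to 0.098 or 0.39 and AT1G74270 to −0.059 or −0.33, in CeO2 S14 to 0.033 or 0.18, S15a to −0.071 and AT1G74270 to −0.030 or −0.26, and in the difference of effects S4 to 0.067 and L31 to −0.23. The deviations of same-numbered arrays from their group means had correlations of 0.0022 to 0.30. With the replicate block the probe sets past the threshold went from 2407 to 2886 in TiO2 and from 550 to 647 in CeO2. For the difference of effects they went from 1833 to 2148. The count of members stayed at 0 in all 3 comparisons with the block, with medians of 0.10, −0.046 and −0.19. Adding the shared probe sets or leaving out the dim AT2G39590, both chosen after seeing the data, left the counts at 0, and with the shared probe sets the medians were 0.084 in TiO2, −0.023 in CeO2 and −0.12 for the difference of effects. No member had several probe sets of its own, so their mean was not run as an alternative, and AT2G39590 had no value without dim probe sets.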
